A study of Homo sapiens with 2 samples.

Results

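The keratin (KRT) and keratin-associated protein (KRTAP) genes of chromosomes 12 and 17 were examined by whole-genome bisulfite sequencing in 2 acute myeloid leukemia (AML) cell lines. Members were the protein-coding genes on these chromosomes whose symbol is KRT or KRTAP followed by a digit, in a GENCODE annotation lifted to GRCh37. They were 89 of 20163 protein-coding genes, 55 KRT and 34 KRTAP. On chromosome 12, 27 genes lay between KRT80 and KRT18 (chr12:52562780-53346690, 783.911 kb). The other 62, including every KRTAP member, lay on chromosome 17 between KRT222 and KRT17 (chr17:38810917-39781094, 970.178 kb). OCI-AML3 carries a heterozygous missense mutation of DNMT3A, a de novo DNA methyltransferase, and AML5 (titled OCI-AML5 in the labels) is DNMT3A wild type. Both were untreated, grown in the same medium, and sequenced as 1 library each. The lines come from different patients, so mutation status cannot be told apart from any other difference between the lines, and no test between conditions was possible. OCI-AML3 gave 902802339 calls and AML5 894828667 over the same 28217448 listed CpG dinucleotides, with medians of 27 and 30 calls per nuclear CpG. The methylation level of a CpG is the percentage of its calls that were methylated, and only CpGs with more than 5 reads in both lines were used. At the median depth, 3 calls, taken as the floor, correspond to 11.1% of the calls in OCI-AML3 and 10.0% in AML5. Smaller methylated shares at 1 CpG were kept, but at that depth they rest on fewer than 3 calls and are uncertain.

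Keratins are the intermediate filament proteins of epithelial cells, and each filament pairs an acidic type I with a basic type II keratin. Type II genes and KRT18 make up the chromosome 12 cluster and the other type I genes the chromosome 17 cluster. Simple epithelia use pairs such as KRT8 with KRT18, the basal layer of the epidermis KRT5 with KRT14, and its upper layers KRT1 with KRT10. Hair keratins fill the hair shaft, where KRTAP proteins of high or ultra-high sulfur content crosslink them. These genes are known as tissue-restricted and are not part of the program of blood cells. The data hold no RNA, so whether any member was expressed in either line is not known here. Of the leukocyte markers checked by promoter methylation, SPI1 (11.5% in OCI-AML3, 11.5% in AML5) and PTPRC (19.9% and 20.8%) were low in both lines, whereas MPO (93.2% and 90.3%) and LYZ (75.5% and 71.2%) were high in both.

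Sequences of 3 stretches with the main differences, and of 1 CpG-poor stretch whose single CpG was not called, are shown first. They come from the GRCh37 genome, 5′ to 3′ on the strand of the gene, which was the minus strand in every case. CpG dinucleotides are in capitals. For KRT17 (chr17:39781095-39781344) and KRTAP4-4 (chr17:39317001-39317250) they are the 250 bases before the most upstream annotated transcription start site (TSS). KRT17 was shown because its CpGs were nearly unmethylated in OCI-AML3, and KRTAP4-4 as the CpG-poor stretch. For KRT8 (chr12:53297442-53297711) the 270 bases come from the lower stretch with the most CpGs, in the first intron of the canonical transcript. For KRT27 (chr17:38935794-38936093) the 300 bases come from the higher stretch with the most CpGs, across coding exons 4 and 5 and the intron between them.
KRT17: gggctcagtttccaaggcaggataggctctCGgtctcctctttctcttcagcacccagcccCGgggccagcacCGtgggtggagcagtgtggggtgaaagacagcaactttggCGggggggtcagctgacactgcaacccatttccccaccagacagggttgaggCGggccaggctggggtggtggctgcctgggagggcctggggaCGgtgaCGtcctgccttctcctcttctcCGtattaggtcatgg
KRTAP4-4: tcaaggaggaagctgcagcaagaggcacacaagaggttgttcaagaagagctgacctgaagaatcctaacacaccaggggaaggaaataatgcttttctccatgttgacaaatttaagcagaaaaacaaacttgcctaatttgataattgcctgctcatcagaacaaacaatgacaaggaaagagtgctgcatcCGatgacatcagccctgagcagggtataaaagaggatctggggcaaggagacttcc
KRT8: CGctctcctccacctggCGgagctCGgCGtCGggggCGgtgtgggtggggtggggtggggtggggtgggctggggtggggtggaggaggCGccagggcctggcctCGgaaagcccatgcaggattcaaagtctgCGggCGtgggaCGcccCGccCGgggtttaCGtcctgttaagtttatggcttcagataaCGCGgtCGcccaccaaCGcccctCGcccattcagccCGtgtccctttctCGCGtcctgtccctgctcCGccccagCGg
KRT27: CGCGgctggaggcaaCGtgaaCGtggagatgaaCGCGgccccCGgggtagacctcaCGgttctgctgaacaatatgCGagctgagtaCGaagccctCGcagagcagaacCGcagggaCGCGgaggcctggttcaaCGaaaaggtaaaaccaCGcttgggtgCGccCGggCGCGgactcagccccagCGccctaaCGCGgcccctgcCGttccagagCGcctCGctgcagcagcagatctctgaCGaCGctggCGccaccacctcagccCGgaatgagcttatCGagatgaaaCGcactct

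In the KRT17 stretch, 5 of its 8 CpGs had enough reads, with levels of 0% to 5.88% in OCI-AML3 and 46.2% to 100% in AML5. All 5 were lower by Fisher's exact test on the calls, with Benjamini–Hochberg adjustment over all nuclear CpGs at 0.05. This test compares the reads of 2 libraries and covers read sampling only. The KRT17 CpGs without enough reads had 3 or 4 calls in OCI-AML3, all unmethylated. In AML5 40% of 15, 0% of 15 and 7.69% of 13 calls were methylated at them, so the stretch was not methylated throughout there. The single CpG of the KRTAP4-4 stretch had 62.5% of 8 calls methylated in OCI-AML3 and 88.5% of 26 in AML5, which the reads did not separate (Fisher's exact test, adjusted p = 0.410). In the KRT8 stretch all 20 CpGs with enough reads were lower in OCI-AML3 (mean 6.80% against 87.3%). Loss was complete at position 53297518 of chromosome 12 in that stretch, with 0 of 51 calls methylated in OCI-AML3 and 35 of 35 in AML5 (Fisher's exact test, adjusted p = 3.38e-22). In the KRT27 stretch all 32 were higher (mean 91.1% against 15.8%). A C-to-T sequence difference between the lines would read as loss of methylation at a single CpG, and this was not tested.

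Promoters, taken as the 2 kb before and the 2 kb after the most upstream TSS, were less methylated in OCI-AML3 almost throughout both clusters. The level, a mean over CpGs, was lower in OCI-AML3 in 87 of the 89 members. Median levels of the members were 53.7% against 70.5%. Gene by gene, the median of the differences (OCI-AML3 minus AML5, as throughout) was −16.1 percentage points, and over all protein-coding genes it was −4.70. With a difference of over 20 percentage points as the call, 28 members (31.5%) were lower and 0 were higher in OCI-AML3. Over all 19838 promoters with at least 5 usable CpGs, 8.82% were lower and 1.80% higher. Members held 15 to 170 CpGs in this window, with a median of 44. By over 10 points 69 members were lower, and by over 30 points 10. The 8.82% of all promoters belongs to the 20-point call, and the shares of all promoters at 10 and 30 points are not given here. By the share of all calls, which weights CpGs by their reads, 33 members (37.1%) were lower, against 10.2% of all promoters. KRT3, KRT14, KRT24, KRT27 and KRTAP4-5 then lost the call, and KRT10, KRT18 and KRT25 were among those that gained it. When the median difference of all genes was subtracted, 18 members were still lower by over 20 points and the median was −11.4. With 1 library per line no spread between replicates exists for any of these values, and the Wilson 95% intervals given below cover counting error only.

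**Figure D1:**
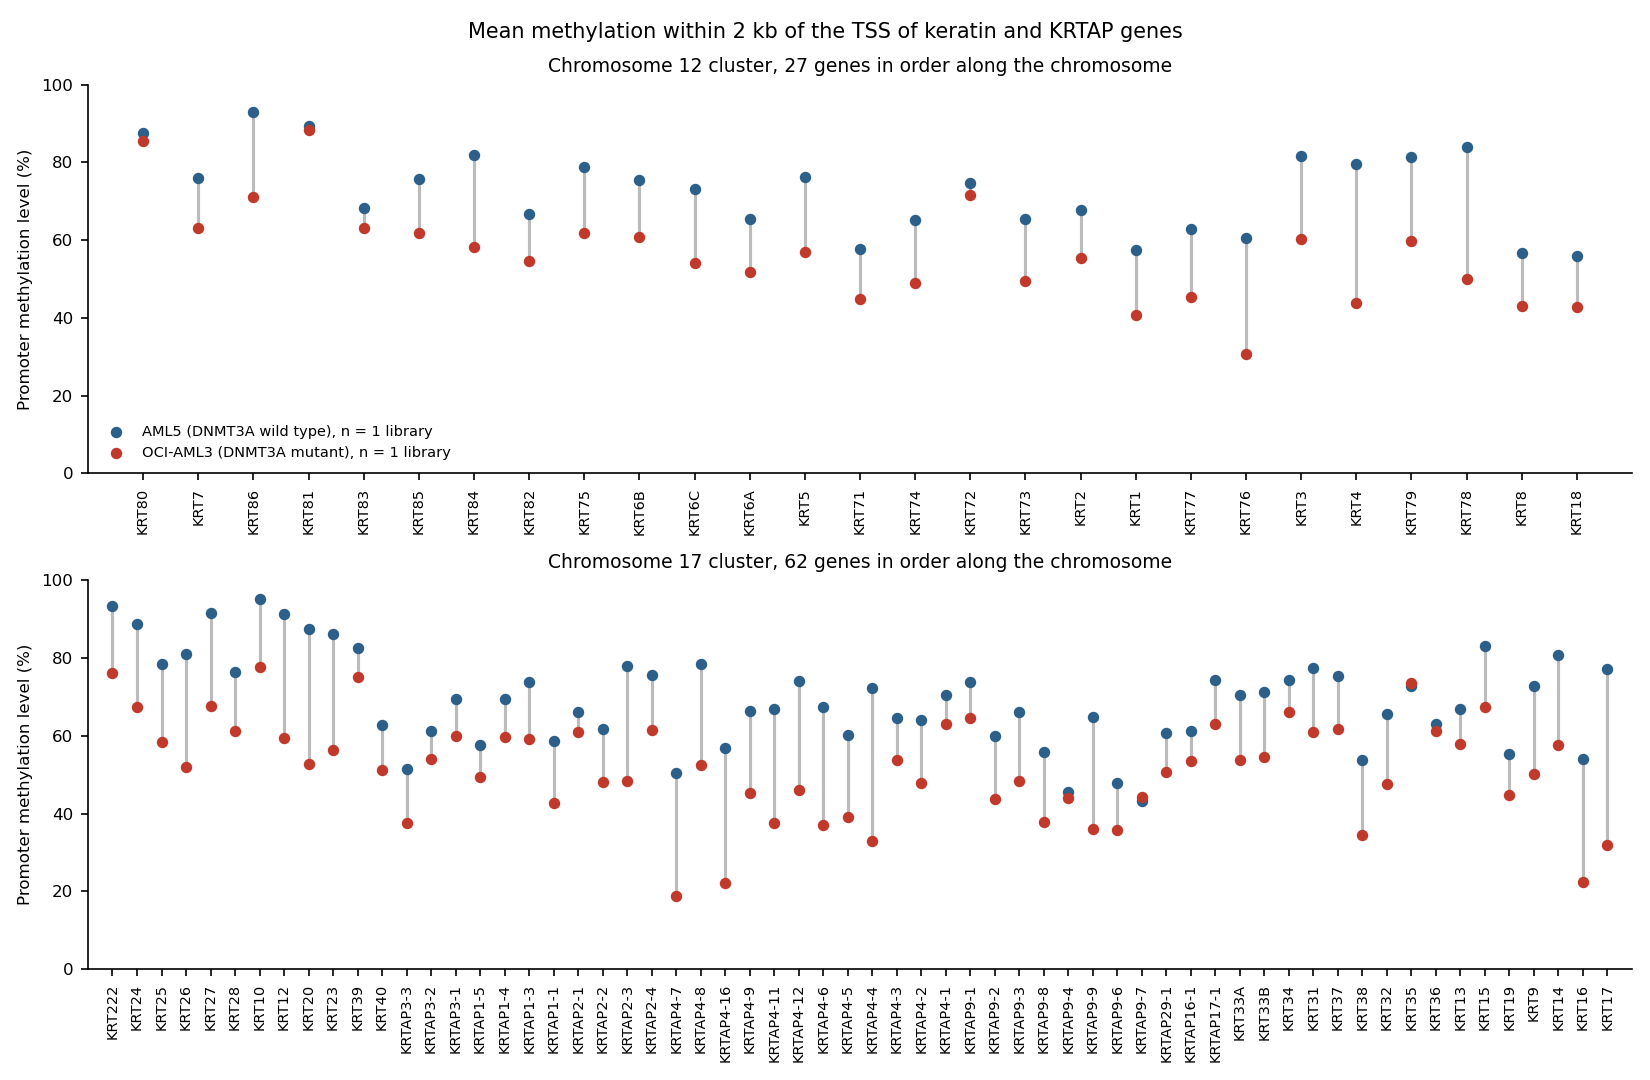
Mean methylation level (%, y axis) within 2 kb of the TSS of each of the 89 genes (x axis, in chromosomal order) in AML5 (blue) and OCI-AML3 (red), 1 library each, with a grey line joining the values of 1 gene. The red point lies below the blue one in 87 genes, and KRT35 and KRTAP9-7 are the exceptions.

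The largest promoter decrease was in KRT17 (chr17:39775694-39781094), a type I keratin of hair follicle and wounded epidermis. Over 85 CpGs it stood at 32.1% against 77.1% (−45.1 points). Pooled over its calls, the share methylated was 32.4% (Wilson 95% interval 30.7% to 34.0%, 3156 calls) in OCI-AML3 and 79.5% (77.8% to 81.1%, 2420 calls) in AML5. Of its 85 CpGs, 56 were lower and 1 higher in OCI-AML3. Next came KRTAP4-4 (32.9% against 72.3%, 14 CpGs), a matrix protein of the hair shaft. KRT4, a keratin of wet-surfaced mucosa, had 43.9% against 79.7%, and KRT20, a keratin of intestinal epithelium, 52.7% against 87.6%. KRTAP4-16 (22.2% against 57.0%) and KRT78 (50.0% against 84.0%) completed the 6 members with the largest decrease. The intervals of the pooled shares did not overlap between the lines in any of these 6. These genes were picked by the size of the same decrease, so the separate intervals are no further support.

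At the other end, 2 promoters were slightly more methylated in OCI-AML3. KRTAP9-7 had 44.3% against 43.4%, but only 5 of its 15 CpGs had enough reads, and by the share of calls its difference turned to −0.96 points. KRT35, a hair keratin, had 73.5% against 72.9% over 37 CpGs, and in the 2 kb upstream alone its difference turned to −4.05 points. KRT81, another hair keratin, had 88.3% and 89.3%, KRTAP9-4 had 44% and 45.6%, KRT36 had 61.4% and 63.0%, and KRT80 had 85.4% and 87.5%. Their pooled shares overlapped in their intervals except for KRT35, where 81.3% (79.1% to 83.4%) in OCI-AML3 stood above 75.9% (73.7% to 78.0%) in AML5. The lowest promoter levels in OCI-AML3 were those of KRTAP4-7 (18.8%), KRTAP4-16 (22.2%), KRT16 (22.4%, but 62.3% at its canonical TSS) and KRT76 (30.7%). In AML5 no member was below 40%, and the lowest were KRTAP9-7 (43.4%), KRTAP9-4 (45.6%), KRTAP9-6 (47.9%) and KRTAP4-7 (50.5%). Just past the threshold stood KRTAP4-5 (−20.9 points) and KRTAP4-9 (−21.2 points), and just short of it KRT25 (−19.97 points), KRT38 (−19.3 points) and KRT5 (−19.3 points).

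By role, the promoters of simple epithelial keratins were split. Neither type II gene of this list was called, with KRT7 at 63.0% against 75.8% and KRT8 at 43.0% against 56.7%. Of the 4 type I genes, KRT20 and KRT23 (56.4% against 86.3%) were lower, and KRT18 (42.8% against 55.8%) and KRT19 (44.8% against 55.3%) were not called. The KRT8 window lies at its most upstream TSS, next to KRT18 and overlapping the KRT18 window, 44878 bases from the start of the canonical KRT8 transcript. At that canonical TSS, KRT8 had 57.3% against 84.3%, a difference of −27.0 points, and would be called. KRT7, KRT8, KRT18 and KRT19 had more calls in OCI-AML3 than in AML5 (8799 against 5508 for KRT19), and by the share of calls their differences were −15.9, −18.9, −22.8 and −9.72 points in that order, so KRT18 would be called. Without CpGs over 3 times the median reads they were −11.7, −13.5, −12.3 and −11.0 points.

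Among keratins of stratified epithelia, 5 of 13 type II promoters and 6 of 9 type I promoters were lower, with median differences of −19.1 and −22.6 points. The pair of the basal epidermis, KRT5 (56.9% against 76.2%) and KRT14 (57.6% against 80.8%), lay on either side of the threshold. By the share of calls both fell short of it, at −16.7 and −19.6 points. By the mean over CpGs the pair of the upper epidermis had smaller differences, with KRT1 at 40.7% against 57.4% and KRT10 at 77.7% against 95.1%. By the share of calls KRT10 was past the threshold and so beyond KRT5 and KRT14, and this order depended on the measure. KRT4 was the lowest of the type II list by difference and KRT80, a broadly expressed type II keratin, the least changed. KRT17 and KRT13 (58.0% against 67.0%), a keratin of oral and esophageal mucosa, bounded the type I list. KRT16, which is induced in stressed epidermis, had 22.4% against 54.0% (−31.6 points), but its most upstream TSS lies 3132 bases from that of the canonical transcript, where it had 62.3% against 79.2% (−16.9 points).

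Of the keratins of the inner root sheath, the layer around the growing hair, 0 of 5 type II and 2 of 4 type I promoters were lower. KRT26 (51.9% against 81.1%) and KRT27 (67.7% against 91.6%) were the called ones, and KRT72 (71.7% against 74.7%) had the smallest difference. Of the hair keratins, 2 of 6 type II promoters were lower, KRT84 (58.1% against 81.9%) and KRT86 (71.0% against 92.9%), and 0 of 11 type I promoters, whose differences ran from −19.3 points in KRT38 to 0.64 in KRT35. The most upstream TSS of KRT86 lies inside KRT7. At its canonical TSS the window held 12 usable CpGs and differed by −18.4 points.

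**Figure D2:**
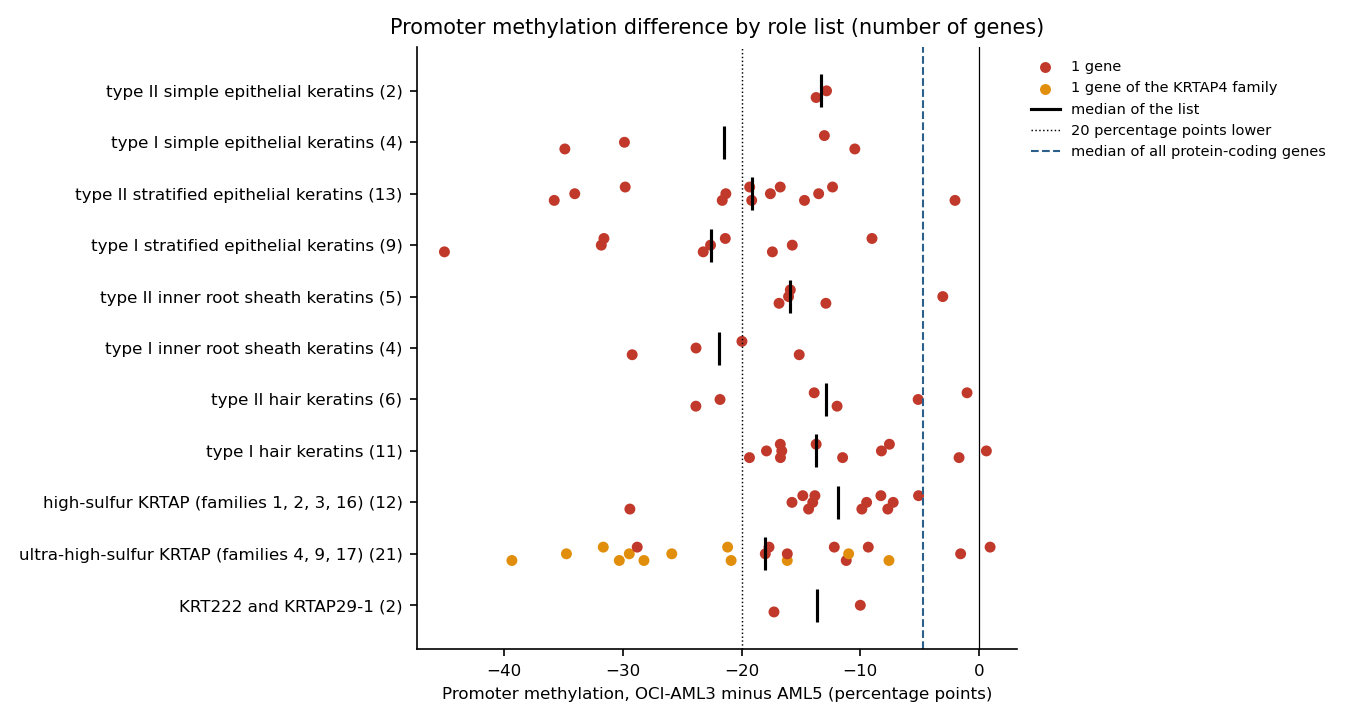
Difference in promoter methylation, OCI-AML3 minus AML5 (percentage points, x axis), for every gene in 11 role lists (y axis, number of genes in brackets), with the median of each list as a black bar. KRTAP4 genes (orange) occupy most of the left side of the ultra-high-sulfur list, and the median of each list lies left of that of all protein-coding genes (dashed line, −4.70).

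The KRTAP promoters differed by family. Of 12 high-sulfur genes only KRTAP2-3 was lower (48.5% against 77.9%), and the list ended with KRTAP2-1 (61.0% against 66.1%). Of 21 ultra-high-sulfur genes 10 were lower, and 9 of these belonged to the 12 KRTAP4 genes, whose median difference was −27.1 points. All 12 KRTAP4 promoters were below their AML5 level, from KRTAP4-4 (−39.4 points) to KRTAP4-1 (−7.58 points, 63.0% against 70.5%). Only KRTAP9-9 (36.2% against 65.0%) was lower among the 8 KRTAP9 genes, which have a median of −14.2 points. KRT222, which is unlike the other keratins in sequence (76.1% against 93.4%), and KRTAP29-1 (50.8% against 60.8%) were not called. Of the CpGs in KRTAP promoters 85.2% had enough reads, against 95.4% in promoters of all protein-coding genes on both chromosomes. Without the 13 members in which under 80% of CpGs passed, 11 of them KRTAP, 25 of 76 promoters were lower.

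Promoter CpG content separates most genes into CpG islands and CpG-poor starts, so members were set beside other genes of like content. With fewer than 40 listed CpGs in the window, 13 of 37 members (35.1%) and 28.4% of the other 2237 genes were lower, with medians of −16.7 and −11.3 points. With 40 to 100 CpGs, 15 of 48 members (31.2%) and 9.73% of the other 4675 genes were lower, with medians of −16.0 and −6.34 points. The 4 members with more than 100 CpGs, KRT7, KRT8, KRT18 and KRT19, had a median of −12.9 points and none was called, against 4.92% of 12837 genes and a median of −3.81. With limits of 30 and 80 CpGs in place of these, the share of lower members in the poorest class was 16.7% of 18, below the 31.9% of other genes, so the order of that class depends on where it is cut. In the 250 bases before the TSS, the KRT genes had a median of 2 CpGs and the KRTAP genes 1, against 13 for all 2229 protein-coding genes of both chromosomes. The letters TATAAA, on either strand, stood in this window in 41.8% of KRT, 85.3% of KRTAP and 11.9% of all those genes, as in the KRTAP4-4 sequence above. GGGCGG, the core of the GC box, stood in 14.5%, 0% and 47.9%. TGANTCA, the AP-1 motif, stood in 3.64%, 11.8% and 5.38%.

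The members had no dip at the TSS of the size seen in other genes. In the first 500 bases downstream, CpGs averaged 64.6% in OCI-AML3 and 76.9% in AML5 for the KRT genes of chromosome 12, 57.5% and 75.2% for those of chromosome 17, and 48.1% and 67.5% for KRTAP genes. Other protein-coding genes averaged 14.9% and 17.05% there. In the 500 bases that begin 5 kb upstream, the same 3 groups had 47.0%, 53.4% and 42.2% in OCI-AML3, and the other genes 71.1%. Closer in, levels of the members moved up and down between neighbouring windows. In OCI-AML3 the KRT genes of chromosome 17 had 60.7% in the 500 bases that begin 2 kb upstream and 47.3% in those just before the TSS, and KRTAP genes had 38.7% and 47.7%. The other genes with fewer than 40 CpGs had 69.3% in the farthest upstream window and 59.2% after the TSS.

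Gene bodies moved like the promoters. With at least 5 usable CpGs, 83 of 89 bodies were measured, and 21 (25.3%) were lower and 0 higher in OCI-AML3, against 6.85% and 0.651% of 19817 bodies of all protein-coding genes. Median levels were 57.4% against 71.7%, and the median of the differences was −15.1 points for members and −5.00 for all genes. The largest decreases were in short KRTAP genes, KRTAP9-9 (9.33% against 71.5%, 5 CpGs), KRTAP4-16 (20.8% against 69.2%, 9 CpGs), KRTAP4-4 (29.8% against 76.5%, 6 CpGs) and KRTAP4-8 (41.4% against 82.0%, 18 CpGs). With at least 10 CpGs per body, 15 of 76 were lower. By kind of gene, 13 of 28 measured KRTAP bodies (46.4%) and 8 of 55 KRT bodies (14.5%) were lower. Their median differences were close, at −16.2 and −14.9 points. The KRTAP bodies held a median of 14 CpGs against 111, and their differences spread more (SD over genes 15.5 against 7.92 points). KRT27 (74.6% against 68.6%), KRT81 (86.9% against 82.7%), KRTAP2-1 (63.7% against 60.6%) and KRT35 (77.6% against 77.2%) were higher in OCI-AML3, each by less than 20 points. KRT10 had the lowest body of the KRT genes in both lines, 21.1% and 29.8%, although its promoter window was highly methylated in both.

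The difference was not confined to genes. Of the 177 bins of 10 kb across both clusters, 174 were below their AML5 level, 52 (29.4%) by over 20 points, and 0 were above it by as much. Over all 282646 nuclear bins 17% were lower and 2.86% higher. The median bin of the clusters differed by −16.3 points and that of the genome by −7.40. In larger bins of 50 kb the share of lower bins was 16.7%, against 13.5% of all. The largest decreases were in bins over KRT78 (44.1% against 82.2%), KRT79 (54.6% against 87.8%) and KRT72 (35.3% against 68.4%) on chromosome 12. On chromosome 17 they were over KRTAP4-7 (20.3% against 54.5%), KRT20 (52.0% against 86.2%) and KRT17 (46.8% against 80.3%). The bins with the smallest decrease or an increase held no gene (66.8% against 60.3%), KRT86 with KRT81 (81.7% against 81.2%) and KRT86 alone (75.8% against 75.7%) on chromosome 12. On chromosome 17 they held KRT27 (72.5% against 73.6%), KRT13 (70.9% against 74.4%) and KRT36 (66.9% against 70.4%).

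Beyond the ends of the clusters the decrease was smaller. In the 500 kb before and after the chromosome 17 cluster 2 of 50 bins were lower on each side, with medians of −5.01 and −6.82 points. After the chromosome 12 cluster it was 1 of 50 (median −7.32 points), but before it 13 of 50 (median −10.4 points). Most of these lower bins lay over SCN8A at the far end of that flank, with differences down to −38.1 points. Others lay nearer, such as a bin without a gene at −24.7 points. The bin next to the cluster differed by −9.29 points and the first bin of the cluster, over KRT80, by −6.49. Of the 59 other protein-coding genes within 500 kb, 4 promoters (6.78%) were lower, against 8.82% of all promoters. Their median difference was −4.65 points, near the −4.70 of all protein-coding genes.

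**Figure D3:**
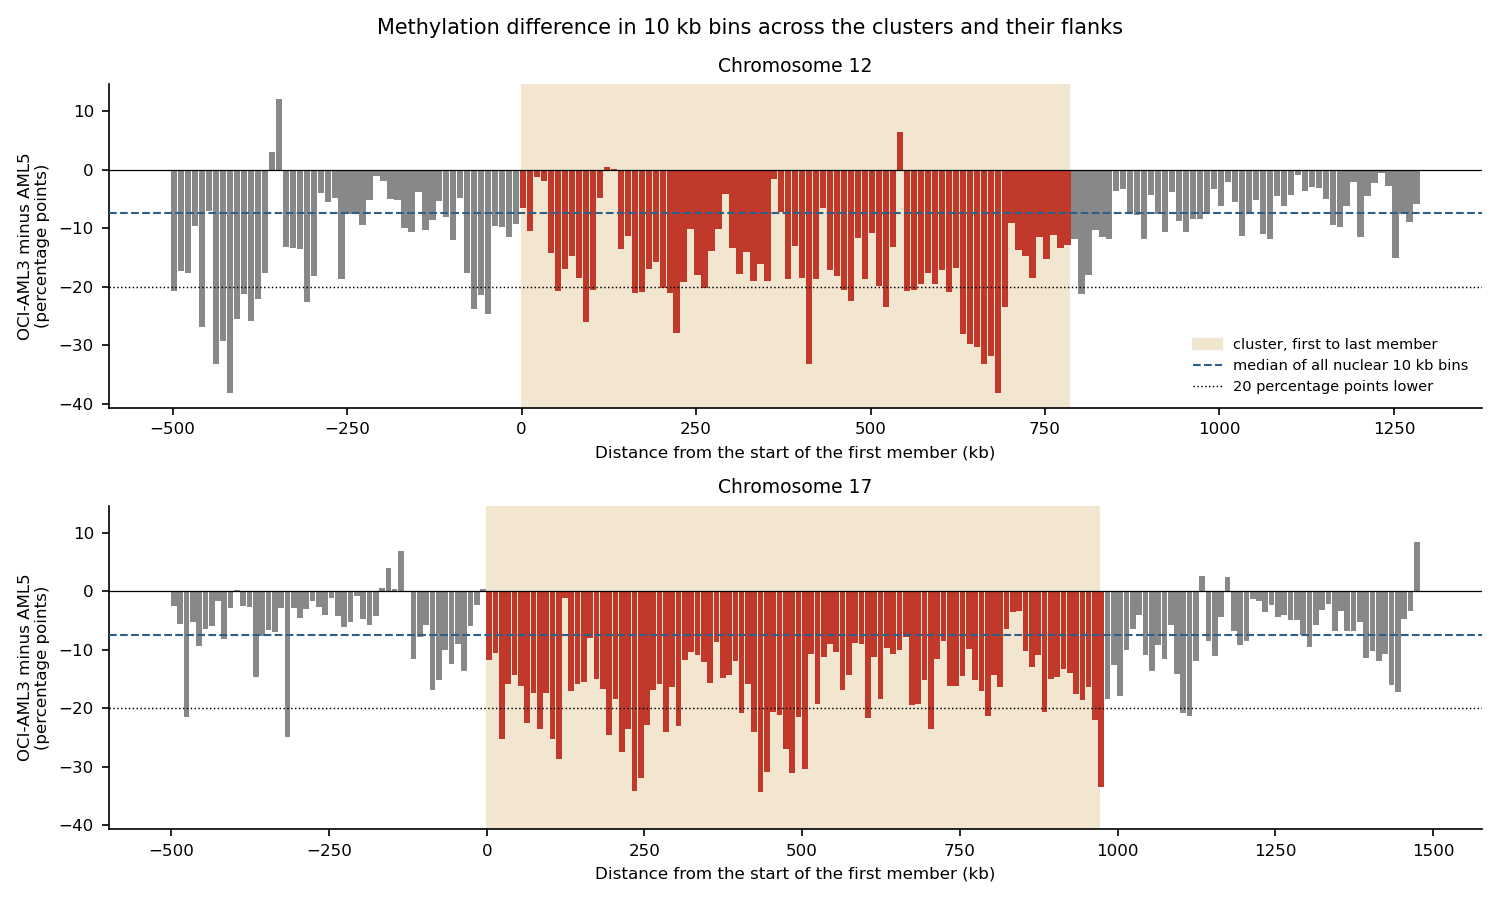
Methylation difference, OCI-AML3 minus AML5 (percentage points, y axis), in 10 kb bins by distance from the start of the first member (kb, x axis) for the chromosome 12 and 17 clusters (red bars on a shaded ground) and 500 kb of flank (grey bars). Of 177 red bars, 174 point down and 52 pass the dotted line at 20 points, and the dashed line marks the median of all nuclear bins (−7.40).

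At single CpGs, 9510 of the 10109 CpGs in member promoters and bodies had enough reads. Of these, 2613 (27.5%) were lower and 341 (3.59%) higher in OCI-AML3 by Fisher's exact test, against 14.7% and 3.86% of 24454751 nuclear CpGs. In the promoter windows alone the shares were 29.0% and 3.38% of 3932 CpGs. In 82 of 89 promoters more CpGs were lower than higher, in 2 (KRT35 and KRT83) more were higher, and in KRTAP9-6 and KRTAP9-7 no CpG was called either way. CpGs of the clusters outside member genes had like shares, 27.2% and 3.15% of 8107. The highly methylated class was smaller in OCI-AML3. CpGs above 80% were 41.9% of the members' CpGs in OCI-AML3 and 60.6% in AML5, those below 20% were 23.4% and 9.03%, and the levels between held 34.8% and 30.3%. An increase from none to all calls was found at chr17, position 39471928, in KRTAP17-1, with 21 of 21 calls methylated in OCI-AML3 and 0 of 32 in AML5 (Fisher's exact test, adjusted p = 2.84e-13).

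Losses at neighbouring CpGs formed runs, defined after the data were seen as at least 5 consecutive usable CpGs called 1 way, no more than 200 bases apart. In members 66 runs were lower, with 523 CpGs in 34 genes, and 3 were higher, with 48 CpGs. Runs held 5.50% (lower) and 0.505% (higher) of the members' CpGs, against 2.32% and 0.487% of all nuclear CpGs. The longest lower run in a promoter spanned 1053 bases at KRT17 (chr17:39780673-39781725), where 29 CpGs averaged 10.1% in OCI-AML3 and 83.2% in AML5. Between −650 and 300 bases from the TSS of KRT17 all 21 usable CpGs were lower, with means of 1.53% and 80.6%. At 600 to 750 bases downstream the 6 CpGs did not pass the test and averaged 84.3% and 89.9%.

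The lower run with the most CpGs held 30, in KRT8 (chr12:53297258-53297711), at 6.83% against 81.9%, and a second run of 13 CpGs followed it. Between 1000 and 1600 bases after the canonical TSS, 42 of 43 CpGs were lower (4.60% against 77.7%). The TSS itself did not share this. From 500 bases before to 900 after it, the 45 CpGs averaged 91.2% in OCI-AML3 and 91.7% in AML5, with 0 lower and 1 higher. In KRT86 adjacent runs of 24 and 20 CpGs (chr12:52652238-52652426 and chr12:52652440-52652582) averaged 22.3% against 77.6% and 30% against 94.1%. Both lie upstream of the canonical KRT86 transcript (chr12:52668429-52702947) and fall in the gene only through its most upstream TSS. Reads were deeper in OCI-AML3 there, with 1674 calls against 796 in the first run.

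The run with the most CpGs in any member went the other way. In KRT27 (chr17:38933060-38938802), an inner root sheath keratin, 34 CpGs across exons 4 and 5 (chr17:38935754-38936134) averaged 89.9% in OCI-AML3 and 16.9% in AML5. Before this run, from the TSS to 2500 bases downstream, 15 of 57 CpGs were lower and 0 higher (75.9% against 93.8%). Beyond it, from 3100 to 6000 bases, 13 of 20 CpGs were lower and 0 higher (44% against 87.2%). The near-level body mean of KRT27 thus averaged stretches of opposite direction. The other higher runs were short, 8 CpGs at the start of KRT83 (94.1% against 68.0%) and 6 at that of KRT19 (91.0% against 49.6%). In the KRT19 promoter window 49 CpGs were lower and 22 higher, so its mean difference of −10.5 points also joined both directions.

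**Figure D4:**
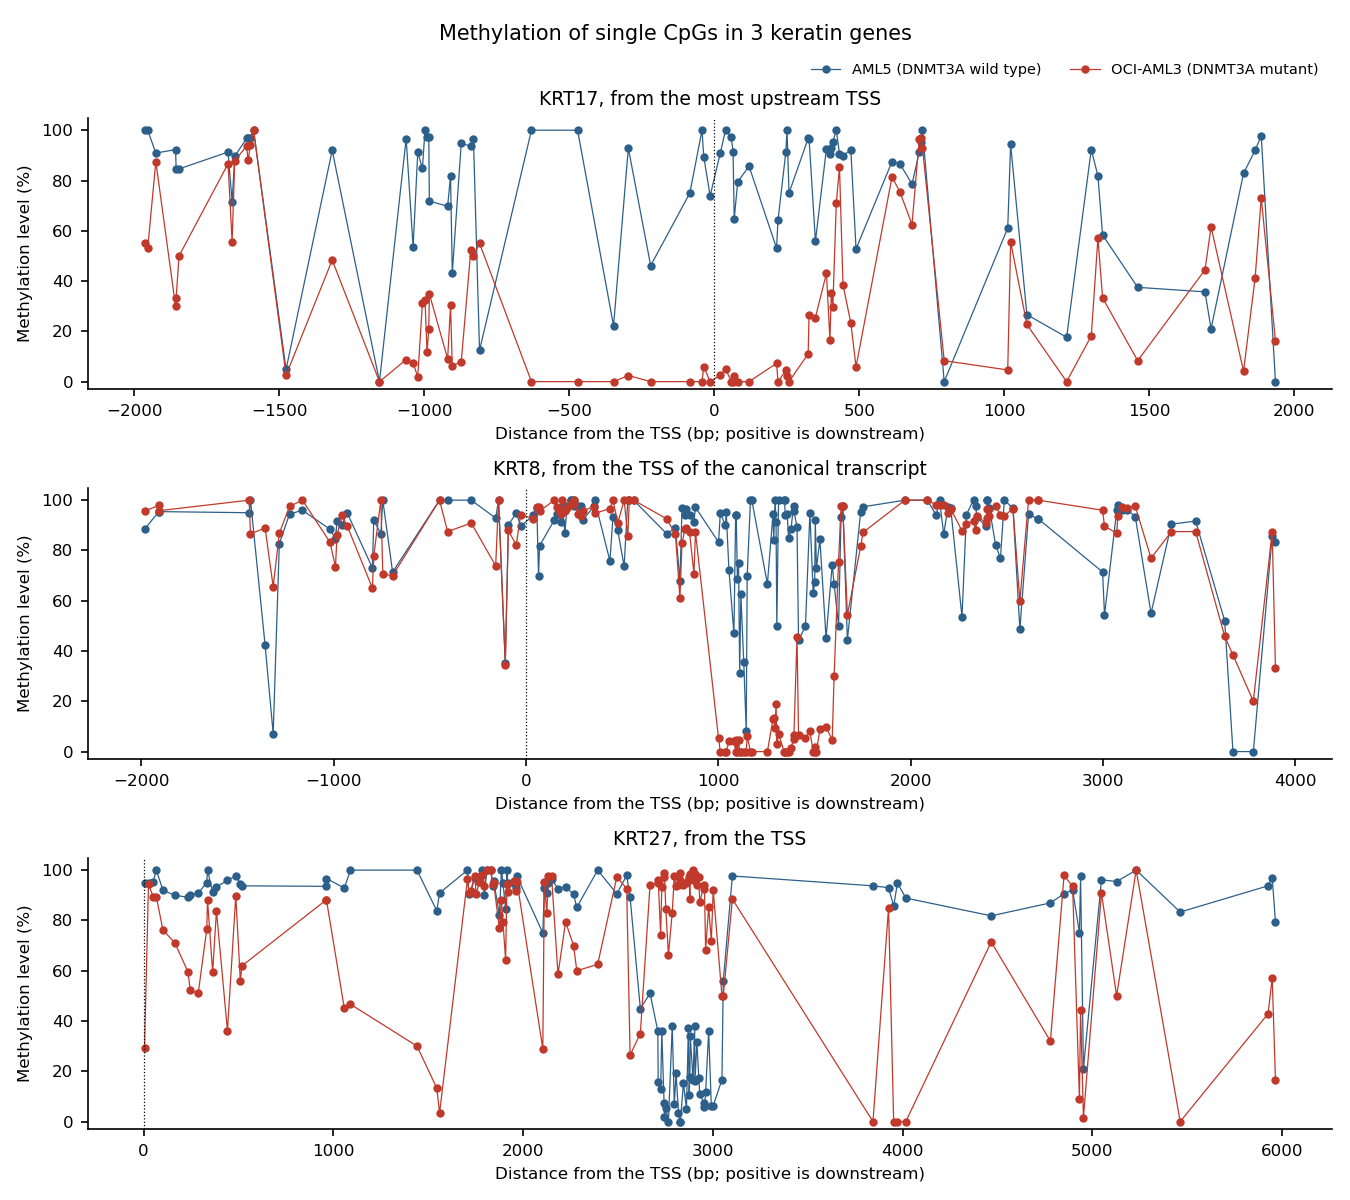
Methylation level (%, y axis) of single CpGs with more than 5 reads in both lines by distance from the TSS (bp, x axis) in KRT17, KRT8 (canonical TSS) and KRT27, AML5 in blue and OCI-AML3 in red. OCI-AML3 falls to near 0 around the KRT17 TSS and at 1000 to 1600 bp in KRT8, and stands above AML5 in the KRT27 stretch of exons 4 and 5.

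The sequence around a CpG went with its level and its difference. Members' CpGs with no other CpG within 35 bases averaged 43.6% against 63.7%, or −20.1 ± 29.1 points (SD over 2678 CpGs of 1 library per line). With 1 to 2 neighbours the difference was −16.1 ± 26.9 (n = 4102), and with 3 or more −10.2 ± 26.6 (n = 2730). Levels also differed by the bases beside the CpG. CpGs with A or T on both sides differed by −20.2 points, with A or T on 1 side by −16.5 and with G or C on both sides by −11.9. Isolated CpGs between A or T had the lowest levels, 25.1% in OCI-AML3 and 47.5% in AML5. Outside the clusters on the same chromosomes the differences had the same order and were smaller, −10.9, −7.75 and −5.09 points by neighbours and −11.4, −8.13 and −5.43 by flanking base. By neighbours the levels there had another order, and CpGs with 3 or more were the lowest (60.8% in OCI-AML3, 65.8% in AML5). By flanking base, CpGs with A or T on both sides were the lowest there too (60.6% and 72.0%). These are descriptions over CpGs that share 2 libraries.

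Genes that work with keratins elsewhere in the genome were set beside the members. Over all promoters 8.82% were lower and 1.80% higher, and in lists this short the counts do not show a difference from these shares. Of 14 genes of the cornified envelope, the crosslinked shell of dead keratinocytes, 2 promoters (14.3%) were lower, HRNR (31.7% against 65.0%) and TCHH (50.8% against 80.6%). The median difference was −15.5 points. These 14 promoters held a median of 22.5 CpGs, and of other genes with fewer than 40 CpGs 28.4% were lower. Of 11 genes of the desmosome, the junction that anchors keratin filaments, 0 were lower, and DSC3 was higher (89.7% against 35.7%). Among 10 other intermediate filament genes PRPH was lower (43.4% against 69.8%), and VIM, the filament of mesenchymal and blood cells, had low levels in both lines (2.69% and 5.21%). Among 14 regulators of keratin genes, TP63, the master factor of stratified epithelium, had 35.9% against 86.8%, GRHL2 had 53.8% against 81.4%, and the other 12 were not called. None of the 10 leukocyte markers was called (median −0.70 points).

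Other clusters of tissue-restricted genes gave a scale for these values. Of 60 KRTAP genes on other chromosomes 11 promoters (18.3%) were lower and 0 higher, with a median of −11.8 points. Of 175 olfactory receptor promoters measured on chromosome 11, 103 (58.9%) were lower and 1 was higher, with a median of −21.4 points. The members, at 31.5% and −16.1 points, lay between these clusters. None of these comparisons has replicates, and none was tested.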

How the data were processed

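Genomic DNA of OCI-AML3 and AML5 was bisulfite converted and sequenced in paired reads by the authors, who aligned them to hg19 (GRCh37) with Bismark and Bowtie 0.12.8, as the submitters' processing notes name it. The deposited values are, for each CpG, counts of its methylated and its unmethylated calls, both strands added, with no normalization. Whether duplicate reads were removed is not given in the sources used here. The column of methylated calls was identified from the mitochondrial genome, where 0.168% and 0.101% of calls were then methylated. All listed positions on chromosomes 12 and 17 are CpGs in GRCh37.

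From the counts, levels were computed as means over CpGs with more than 5 reads in both lines, for windows of 2 kb before and after the most upstream annotated TSS, whole genes, and 10 kb bins, with at least 5 such CpGs. A difference of over 20 percentage points was called. Single CpGs were compared with two-sided Fisher's exact tests and Benjamini–Hochberg adjustment (numba 0.67.0, SciPy 1.17.1), tested on simulated data. Intervals are Wilson 95% intervals, which treat calls as independent and cover counting error only. Levels in repeated KRTAP families can include misplaced reads. The members, gene lists and tests were chosen with earlier results of these data known. The named genes are the 6 promoters with the largest and the 6 with the smallest decrease, 4 each for bodies, the 4 lowest promoters per line, KRT1, KRT5, KRT7, KRT8, KRT10, KRT14, KRT18 and KRT19, the ends of each role list, those nearest the threshold, and extreme CpGs and bins. Genes named beside a list as called or with other values were chosen after these were seen, and so were runs and stretches. Alternatives were other read minimums and upper limits, shares of calls, thresholds, windows, TSS choices, CpG classes and bin sizes. A few results that these rules select are not reported here.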

Additional observations from a re-analysis of the deposited data

How the results depend on the processing

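No paired analysis was possible because each line has 1 library, so no replicate could be left out either. No called value of a named gene changed direction under any alternative. Of 321 values of named genes under alternatives, 268 stayed within the counting interval of the reported value and 53 moved beyond it. Settings that change only the threshold or which members are counted leave the value of a gene as it is. Many of the 268 therefore could not move, and their number does not measure stability. Reversals were counted for called values only, and there were 0. Values short of the call that changed sign, such as that of KRT35 in the 2 kb upstream, were counted by the size of the shift alone. The number of promoters lower by over 20 points (28) was 69 with a threshold of 10 points, 10 with 30 points, and 18 after subtracting the median difference of all genes. The median promoter difference (−16.1 points) became −11.4 after that subtraction, −17.4 within 1 kb and −15.3 in the 2 kb upstream. With CpG classes cut at 30 and 80, the members' medians were −15.4 in the lowest and −16.7 in the middle class. Of gene bodies, 21 were lower, 66 with 10 points and 11 with 30. Without the first 2 kb, 10 of 56 bodies were lower and 1 higher, with a median of −13.6. The shares of all genes, 8.82% of promoters and 6.85% of bodies, belong to the main setting. They are no background for the counts of members under other settings. The median body difference (−15.1) was −15.4 without deeply read CpGs, −14.3 by shares of calls, −10.1 after subtraction and −15.3 without poorly covered members. In 50 kb bins 16.7% were lower with a median of −14.4, and by shares of calls the 10 kb median was −15.4. Runs of at least 10 CpGs, an alternative chosen after seeing the data, were 9 lower and 1 higher. Counts of single CpGs stayed within 1.5 times under all alternatives. Causes were not tested. At 27 to 30 calls per CpG, depth limits single CpGs more than windows.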
